A study of Mus musculus with 6 samples.

Results

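A group of genes of the endoplasmic reticulum (ER) stress response was followed in mouse embryonic fibroblasts after knockdown of Mettl3. These were 10 genes, Hspa5, Hsp90b1, Dnajb9, Sdf2l1, Pdia4, Creld2, Manf, Herpud1, Edem1 and Xbp1, all taken by symbol from a table of 54532 genes. The fibroblasts expressed the oncogenes E1A and HRasV12, and all of them received 0.2 ug/ml doxorubicin, a topoisomerase II poison that breaks DNA, for 6 hours. Total RNA was sequenced from 3 libraries of the control, shLuc_dox, and 3 of the knockdown, shMettl3_dox, whose short hairpin RNA targets the gene of the enzyme that writes N6-methyladenosine (m6A) on mRNA. Untreated cells were not analysed here, and every comparison lies within the drug-treated state. The table headers carry the number 2 after shMettl3, no other hairpin against Mettl3 is labelled, and the labels do not say whether replicates were separate cultures. The p-values therefore measure the spread between these libraries, which may be technical.

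The ER folds secreted and membrane proteins. When unfolded proteins build up in its lumen, the sensors IRE1 (Ern1), ATF6 and PERK (Eif2ak3) start the unfolded protein response. IRE1 splices Xbp1 mRNA into the form that encodes an active transcription factor, ATF6 is cut by Golgi proteases to release another, and PERK slows translation while favouring that of Atf4. Their targets include chaperones, disulfide isomerases and the ER-associated degradation machinery (ERAD) that sends misfolded proteins to the proteasome. Secretory cells rely on this response, and fibroblasts use it to fold matrix proteins.

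The DNA element best known for the ATF6 and XBP1 branches is the ER stress response element (ERSE), which is CCAAT and CCACG with 9 bases between them. RefSeq promoters (GRCm38.p6, 250 bases before to 50 after the start) were listed for 9 of the 10 genes, all but Manf, with 1 promoter each. Searched on both strands, the full ERSE was present in 3 of these 9, against 0.137% of 27025 genes with a listed promoter. The form without its last base (CCAAT, 9 bases, CCAC), which the full ERSE contains, was present in 5 of 9, against 0.429% of genes. Of the motifs searched, this form was found in the largest number of these genes, and the windows that hold it are printed below. Each is read 5′ to 3′ along the gene, and capitals mark the fixed bases of a match. Where CGTGG or GTGG and ATTGG are in capitals together, the element lies on the other strand.
Hspa5: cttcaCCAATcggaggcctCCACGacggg
Hsp90b1: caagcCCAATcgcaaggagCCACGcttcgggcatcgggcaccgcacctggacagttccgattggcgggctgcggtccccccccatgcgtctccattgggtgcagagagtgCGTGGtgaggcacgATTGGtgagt
Creld2: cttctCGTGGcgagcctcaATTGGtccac
Pdia4: accgaGTGGcagcccgtgATTGGtggtc
Herpud1: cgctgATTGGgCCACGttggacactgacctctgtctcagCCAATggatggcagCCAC

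The windows lie at chr2:34772020-34772048 (plus strand) for Hspa5, chr10:86705528-86705661 (minus) for Hsp90b1, chr15:88819515-88819543 (plus) for Creld2, chr6:47813597-47813624 (minus) for Pdia4 and chr8:94386372-94386428 (plus) for Herpud1. Counting -1 as the base just before the RefSeq start, Hsp90b1 held 2 copies, from -212 to -194 and, on the other strand, from -107 to -89. The Hspa5 copy ran from -65 to -47 and that of Creld2, on the other strand, from -126 to -108. Pdia4 and Herpud1 held only the form without the last base, from -107 to -90 (other strand) and from -18 to -1. Herpud1 also held the compact ERSE-II (ATTGG and CCACG with 1 base between them), from -52 to -42, an element found in 0.0444% of genes, and 1 match to the element of ATF4 and C/EBP factors, TGATGNAA, found in 4.51%. Of the 9 genes, 0 held the XBP1-type core TGACGTGG, which was present in 0.714% of genes. A match is a run of letters and not a measured binding site, and a missing match says nothing about the factor.

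**Figure D1:**
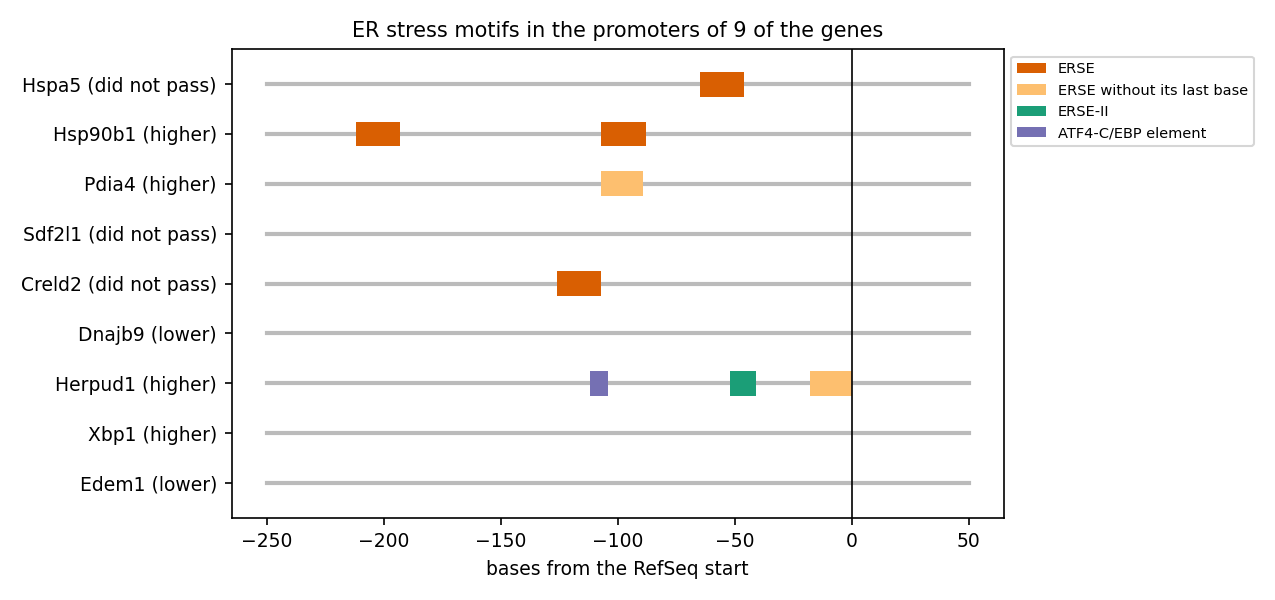
Position of motif matches in the promoters of 9 genes (one line per gene, with its limma result in brackets), in bases from the RefSeq start on the x axis; coloured blocks are matches, and the vertical line is the start. Hspa5, Hsp90b1 and Creld2 carry the full ERSE, Pdia4 and Herpud1 the form without its last base, Herpud1 2 further matches, and the other lines are empty.

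The libraries held 17026910 to 25505279 recovered reads. Mettl3 mRNA stood at 2.47, 3.14 and 2.59 FPKM (reads scaled to gene length and library size) in shLuc_dox and at 1.29, 1.53 and 1.65 FPKM in shMettl3_dox. The groups did not overlap (log2 change -0.58 on the log2(FPKM + 1) scale, limma adjusted p = 0.00861). That scale understates changes of low genes: the ratio of the means was 0.545, and edgeR on recovered reads gave a log2 change of -0.89. Replicate 3 of shMettl3_dox stood apart from its group: set against replicates 1 and 2, its recovered reads gave chi-square values of 13.1 and 14.9 per degree of freedom, and the other replicate pairs 3.53 to 4.89. Of 8 fibroblast markers 3 (Vim, Fn1 and Pdgfrb) reached a mean of 1 FPKM, while Thy1 was at or near 0 and Col1a1, Col1a2 and Col3a1 had means under 1. Summed over the 8, the level was 891 to 944 FPKM in shLuc_dox and 776 to 851 in shMettl3_dox. The sums for other cell types were 49.2 to 52.8 against 29.3 to 35.8 FPKM for 5 epithelial markers, mostly Krt18, and 15.4 to 18.1 against 9.47 to 11.1 for 5 leukocyte markers, nearly all Cd68. They were 5.95 to 6.81 against 2.60 to 3.30 for 4 muscle markers, nearly all Des, and 0.210 to 0.386 over both groups for 4 endothelial markers. Epcam, an epithelial surface marker, was at 4.47, 4.26 and 3.67 FPKM in shLuc_dox and at 3.13, 2.61 and 2.24 in shMettl3_dox (log2 change -0.49, limma adjusted p = 0.0171). The markers Cdh1, Krt14, Ptprc, Adgre1, Itgam, Myod1 and Myog were at or near 0. The part of these shifts in the results was not tested, and in bulk RNA fewer cells of a type and less RNA per cell cannot be told apart.

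The ER stress genes did not move as 1 block. In limma on log2(FPKM + 1), fitted over the 12098 genes that reached 1 FPKM on average, all 10 were tested: 5 were higher in shMettl3_dox (Pdia4, Manf, Herpud1, Xbp1 and Hsp90b1), 2 were lower (Edem1 and Dnajb9) and 3 did not pass an adjusted p of 0.05 (Hspa5, Creld2 and Sdf2l1). Over all tested genes 14.6% were higher and 13.5% lower, 28.1% together. All 10 genes had a mean of at least 5 FPKM, where a larger share of genes was called. Fitted over the 8026 genes at that level, 1637 were higher and 1197 lower (median log2 change 0.03), and the 10 again gave 5 and 2. The groups did not overlap for 9 of the 10 genes, against 45.1% of all tested genes. The median log2 change of the 10 was 0.14, and of all tested genes 0.01. The changes were small, from -0.37 to 0.41. With each library scaled to its protein-coding sum 3 of the 10 were higher and 2 lower, and the split over all genes went from 1763 higher and 1633 lower to 1264 and 1922. Leaving out any 1 shLuc_dox replicate left 3 higher. Leaving out any 1 library except shMettl3_dox replicate 3 left 1 lower, and without that replicate the counts were 5 and 2.

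**Figure D2:**
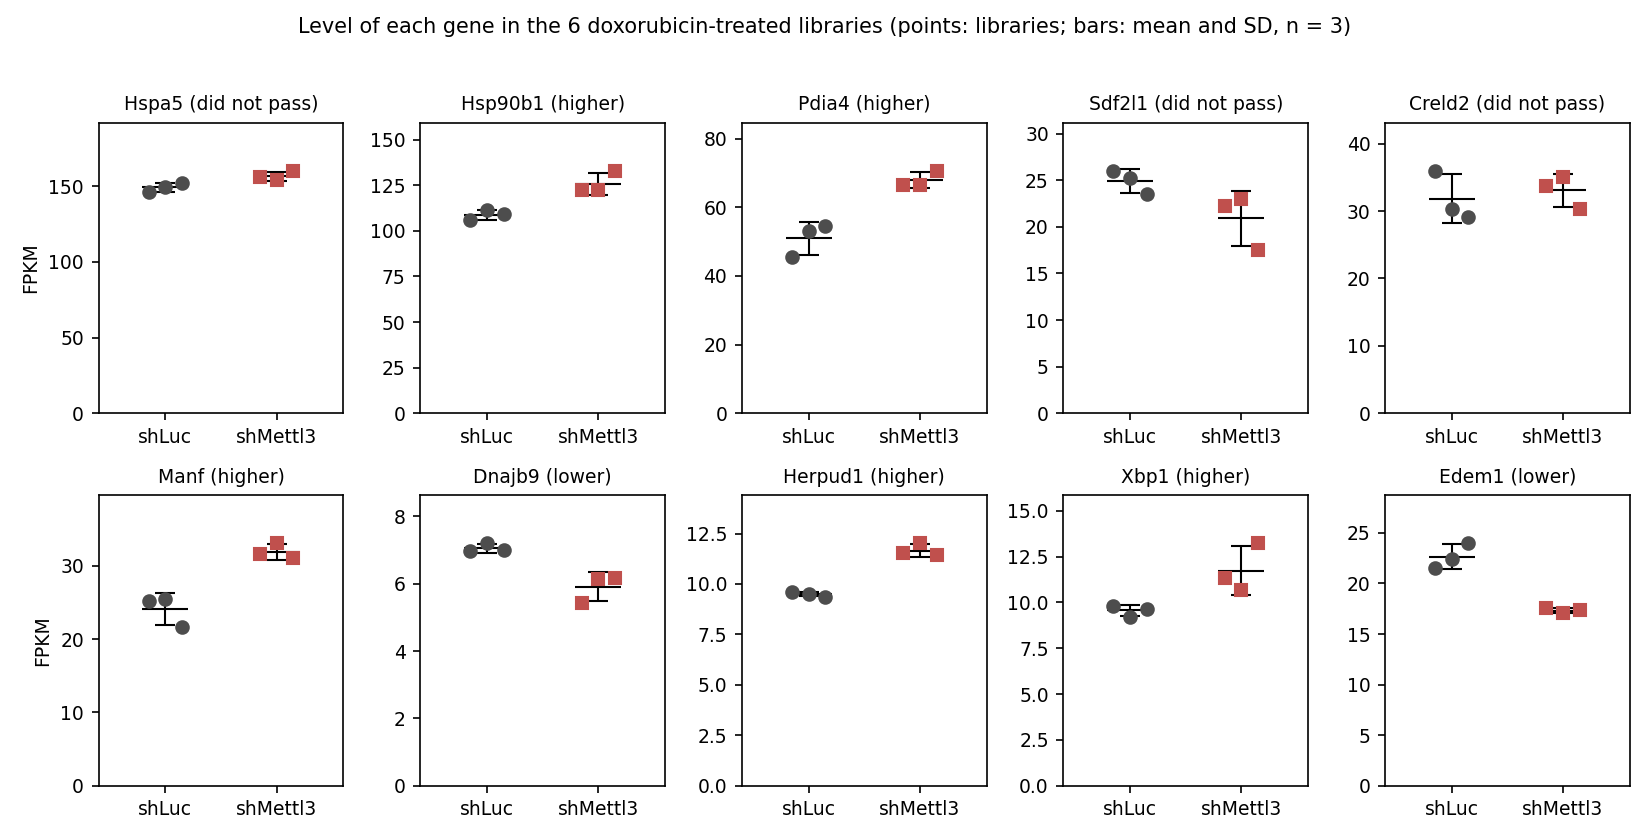
FPKM of each gene (y axis, from 0) in the 3 shLuc_dox libraries (circles) and the 3 shMettl3_dox libraries (squares); bars give the mean and SD, n = 3. Pdia4, Manf, Herpud1, Xbp1 and Hsp90b1 sit higher in shMettl3_dox, Edem1 and Dnajb9 lower, and for Creld2 alone the groups overlap.

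Among the chaperones, the large ER HSP90 was called higher and the ER HSP70 did not pass. Their 95% intervals overlapped (0.09 to 0.32 and -0.02 to 0.16), and the difference between them was not tested. Hspa5 (ENSMUSG00000026864, mm10 chromosome 2, 34771970 to 34777547, plus strand) encodes BiP, the HSP70 of the ER lumen and the classic readout of ER stress. It was at 146, 149 and 152 FPKM in shLuc_dox and at 156, 154 and 160 FPKM in shMettl3_dox. Every shMettl3_dox library lay above every shLuc_dox library, but the steps were small, a difference of 4.95% between the means. The log2 change was 0.07 (SE 0.0383, 95% interval -0.02 to 0.16, limma adjusted p = 0.226). With 10827 to 16608 reads per library, this interval is the narrowest of the 10, and it leaves out a rise as large as that of Pdia4.

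Hsp90b1 (ENSMUSG00000020048, chromosome 10, 86690209 to 86705509, minus strand) encodes GRP94, which folds integrins and Toll-like receptors. Its level was 106, 111 and 109 FPKM in shLuc_dox and 122, 123 and 133 FPKM in shMettl3_dox. The groups did not overlap, and replicate 3 was the highest of shMettl3_dox. The log2 change was 0.21 (SE 0.0472, limma adjusted p = 0.0187), from a mean of 109 ± 2.73 to 126 ± 6.00 FPKM (SD, n = 3). The call was lost without any 1 shLuc_dox replicate (limma adjusted p from 0.0501 to 0.0708), after quantile normalization (0.0726) and with the protein-coding scaling (0.0558). The opposite-strand pseudogene 1810014B01Rik, at 1.34 to 2.49 FPKM, shares 10.3% of the exon bases, and the sources used here do not state whether counting used strand.

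Dnajb9 (ENSMUSG00000014905, chromosome 12, 44205559 to 44210326, minus strand) encodes ERdj4, a J-domain partner of BiP that also represses IRE1. It was the lowest of the 10 genes, at 6.96, 7.20 and 6.99 FPKM in shLuc_dox and 5.41, 6.14 and 6.17 FPKM in shMettl3_dox. All 3 shMettl3_dox values lay below the shLuc_dox values, and replicate 1 was the lowest. It fell by 0.22 on the log2 scale (SE 0.0606, limma adjusted p = 0.0342). This call rests on 274 to 369 reads per library, and neither edgeR (adjusted p = 0.0624) nor DESeq2 (adjusted p = 0.0821) on recovered reads made it. It was also lost when any 1 library except shMettl3_dox replicate 3 was left out (limma adjusted p from 0.0533 to 0.107).

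Sdf2l1 (ENSMUSG00000022769, chromosome 16, 17130138 to 17132383, minus strand) encodes an ER protein that works with J-domain partners of BiP to keep client proteins soluble. It stood at 26.0, 25.2 and 23.5 FPKM in shLuc_dox and at 22.2, 23.0 and 17.6 FPKM in shMettl3_dox. The groups did not overlap, and replicate 3 of shMettl3_dox was far below the other 2. The difference of -0.25 did not pass (SE 0.0994, limma adjusted p = 0.106; 392 to 621 reads per library). Over the other alternatives and leave-one-out fits the adjusted p ran up to 0.250. With the replicate number as a block it was 0.0438, although the numbers do not pair the libraries.

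Of the folding enzymes and secreted factors, Pdia4 and Manf had the largest rises of the 10. Pdia4 (ENSMUSG00000025823, chromosome 6, 47796141 to 47813430, minus strand) encodes ERp72, a disulfide isomerase that forms and rearranges disulfide bonds. It was at 45.5, 53.0 and 54.4 FPKM in shLuc_dox and at 66.6, 66.5 and 70.5 FPKM in shMettl3_dox. The gap between the groups was wide, with replicate 1 the lowest of shLuc_dox. The mean went from 51.0 ± 4.77 to 67.9 ± 2.31 FPKM (SD, n = 3), a ratio of 1.33. The log2 change was 0.41 (SE 0.0710, limma adjusted p = 0.00675). The call held under all 16 alternatives and leave-one-out fits, with log2 changes from 0.33 to 0.46.

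Manf (ENSMUSG00000032575, chromosome 9, 106838312 to 106891979, minus strand) encodes a small ER protein that is secreted under stress and protects neurons and other cells. Its level was 25.2, 25.5 and 21.6 FPKM in shLuc_dox and 31.6, 33.1 and 31.0 FPKM in shMettl3_dox. No library of either group came near the other, and replicate 3 of shLuc_dox was the lowest of all. The mean went from 24.1 ± 2.17 to 31.9 ± 1.04 FPKM (SD, n = 3), a ratio of 1.32 (log2 change 0.39, SE 0.0685, limma adjusted p = 0.00683), and this call too held in all 16. Its exons share 4.14% of their bases with the opposite-strand gene Dcaf1, at 12.6 to 14.9 FPKM.

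Creld2 (ENSMUSG00000023272, chromosome 15, 88819646 to 88826683, plus strand) encodes an ER protein with disulfide isomerase activity. The values were 35.9, 30.3 and 29.1 FPKM in shLuc_dox and 33.7, 35.1 and 30.4 FPKM in shMettl3_dox. The groups overlapped, and replicate 1 of shLuc_dox was the highest library of all. On the log2 scale the change was 0.06 (SE 0.0888, 95% interval -0.15 to 0.27, limma adjusted p = 0.672). The interval holds both 0 and the 0.21 of Hsp90b1. Creld2 and Manf respond together to ER stress in other settings, and here their log2 changes were 0.06 and 0.39.

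The ERAD genes went both ways. Herpud1 (ENSMUSG00000031770, chromosome 8, 94386438 to 94395377, plus strand) encodes HERP, a membrane protein that gathers the ERAD complex around the ubiquitin ligase HRD1. It was at 9.588, 9.503 and 9.375 FPKM in shLuc_dox and at 11.54, 12.01 and 11.42 FPKM in shMettl3_dox. The replicates lay close together in both groups. Its log2 change was 0.27 (SE 0.0427, limma adjusted p = 0.00472), and it passed in all 16 alternatives and leave-one-out fits, on 368 to 679 reads per library.

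Edem1 (ENSMUSG00000030104, chromosome 6, 108828641 to 108859356, plus strand) encodes a mannosidase-like protein that pulls misfolded glycoproteins out of the folding cycle for ERAD. It stood at 21.5, 22.4 and 24.0 FPKM in shLuc_dox and at 17.6, 17.0 and 17.3 FPKM in shMettl3_dox. Every shMettl3_dox library was well below every shLuc_dox library. The mean fell from 22.6 ± 1.23 to 17.3 ± 0.284 FPKM (SD, n = 3), a ratio of 0.765 (log2 change -0.37, SE 0.0492, limma adjusted p = 0.00264). It had the smallest limma adjusted p of the 10 and passed in all 16 alternatives and leave-one-out fits (log2 change -0.41 to -0.33). Of the 10, Edem1 alone is listed in the authors' deposited table, which holds lower genes and gives it a log2 fold change of -0.379 with an adjusted p of 2.63e-08.

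Xbp1 (ENSMUSG00000020484, chromosome 11, 5520659 to 5525893, plus strand) is both the IRE1 substrate and a target of the response. Its level was 9.80, 9.21 and 9.66 FPKM in shLuc_dox and 11.3, 10.7 and 13.2 FPKM in shMettl3_dox. The groups did not overlap, and replicate 3 was the highest of shMettl3_dox. The log2 change was 0.27 (SE 0.0774, limma adjusted p = 0.0423). That call was lost without any 1 shLuc_dox replicate or without shMettl3_dox replicate 1 (0.0824 to 0.126 by limma), while without shMettl3_dox replicate 3 the log2 change was 0.18 and the call remained. It was lost too with the protein-coding scaling (0.0821), after quantile normalization (0.0519), with median ratio scaling (0.0512), without the trend (0.0576) and without the filter on low values (0.103), while edgeR (adjusted p = 0.0189) and DESeq2 (adjusted p = 0.0199) on recovered reads kept it. Gene-level FPKM adds spliced and unspliced Xbp1 together, so IRE1 splicing was not measured.

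**Figure D3:**
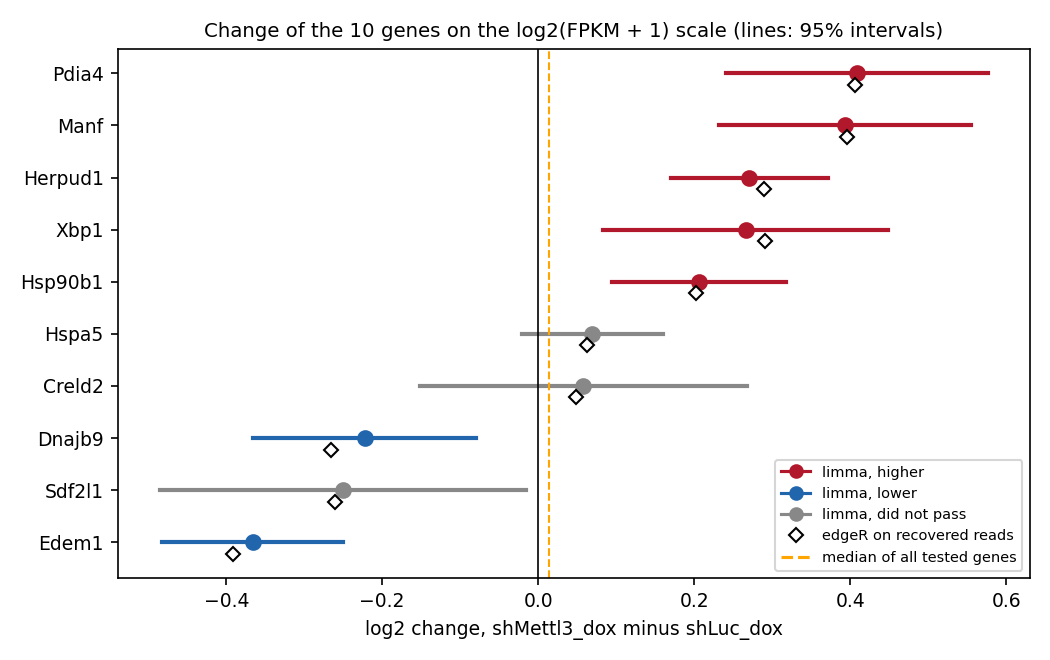
Log2 change of each gene, shMettl3_dox minus shLuc_dox, on the log2(FPKM + 1) scale (circles with 95% intervals, coloured by the limma result) and from edgeR on recovered reads (diamonds); the dashed line is the median of all tested genes, 0.01. Pdia4 and Manf are farthest to the right and Edem1 farthest to the left, and the intervals of Hspa5 and Creld2 cross 0.

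The levels per gene length kept nearly the same order in both groups. In shLuc_dox the order of mean FPKM was Hspa5, Hsp90b1, Pdia4, Creld2, Sdf2l1, Manf, Edem1, Xbp1, Herpud1 and Dnajb9. Sdf2l1 and Manf, Manf and Edem1, and Xbp1 and Herpud1 overlapped in range, and all other neighbours were separated. In shMettl3_dox Manf stood above Sdf2l1 with no overlap, next to Creld2 (33.1 and 31.9 FPKM), and Sdf2l1 and Edem1 overlapped, as they also did in shLuc_dox. Hspa5 and Hsp90b1 together gave 57.6% to 59.7% of the summed FPKM of the 10. That sum was 433 to 443 FPKM in shLuc_dox and 478 to 490 in shMettl3_dox, which is 0.141% to 0.148% and 0.152% to 0.168% of all FPKM.

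The genes also differed in how closely replicates lay together. In shLuc_dox the coefficient of variation was 1.13% for Herpud1, 1.78% for Dnajb9 and 2.04% for Hspa5, but 9.35% for Pdia4 and 11.4% for Creld2. In shMettl3_dox it was 1.64% for Edem1 and 1.99% for Hspa5 but 14.0% for Sdf2l1 and 11.3% for Xbp1, where replicate 3 was the extreme value of both. In that replicate Sdf2l1, Creld2, Manf and Herpud1 were at their group's lowest and Hspa5, Hsp90b1, Pdia4, Xbp1 and Dnajb9 at its highest. The genes outside all lists whose levels over the 6 libraries lay closest to the mean z-score of the 10 were Akirin2, Naa25, Ift46, Limd1 and Smu1, with Pearson r from 0.995 to 0.998. Those 6 points fall into the 2 groups, so these values describe the group difference and little else.

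Calls were divided both among genes with the promoter element and among those without it. Of the 5 genes with the ERSE form without its last base, Hsp90b1, Pdia4 and Herpud1 rose and Hspa5 and Creld2 did not pass. Of the 4 with a listed promoter and no such match, Edem1 and Dnajb9 fell, Xbp1 rose and Sdf2l1 did not pass. Among the 36 tested genes outside the 10 that carry this form, 7 were higher and 7 lower, with a median log2 change of 0.01. In all 8708 tested genes with a listed promoter, 15.7% were higher and 14.5% lower. The pentamer GGACT, the commonest core of the m6A consensus, was counted in the longest coding transcript of each gene (GENCODE M21). Its density ran from 0 per kilobase in Creld2 to 2.05 in Herpud1, with a median of 1.15 in the 10 and 1.04 in 10653 tested genes. It was 0.354 to 2.05 in the 5 genes that rose, lowest in Hsp90b1, and 0.688 and 1.22 in Edem1 and Dnajb9, which fell.

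Relatives of the 10 genes that act in other compartments, or beside them in the ER, were set beside them. The comparison used the log2 ratio of 2 genes within each library, on the log2(FPKM + 1) scale, which nearly cancels library scaling, in 13 pairs. In 10 of 13 the groups did not overlap in this ratio; for the level of a single gene that held for 45.1% of tested genes, and the share over ratios of other genes was not computed. An exact two-sided permutation test of 3 against 3 cannot go below p = 0.10, which those 10 pairs had (0.13 adjusted over the 13), so none could pass at 0.05. Cdnf, the relative of Manf, was at most 0.38 FPKM and was left out. No relative was set beside Dnajb9 or Xbp1.

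The HSP70 genes outside the ER went both ways. Hspa8, the constitutive cytosolic HSP70, was at 259, 275 and 291 FPKM in shLuc_dox and at 390, 376 and 459 FPKM in shMettl3_dox, far above every control. Its log2 change was 0.56 (limma adjusted p = 0.00400), against 0.07 for Hspa5. The ratio of Hspa5 to Hspa8 went from 0.542 to 0.384, a difference of -0.49 on the log2 scale (SE 0.0784, exact permutation p = 0.10). The mitochondrial HSP70 Hspa9 had a log2 change of 0.16 (limma adjusted p = 0.0234). Leaving out shLuc_dox replicate 1 or 2, or shMettl3_dox replicate 1 or 2, ended that call (0.0684 to 0.0949), as did quantile normalization (0.0558), the protein-coding scaling (0.0568) and testing without the filter (0.0502). The heat-inducible cytosolic HSP70 genes had lower values: Hspa1b was at -0.38 (limma adjusted p = 0.0319) and Hspa1a, at under 2 FPKM in every library, at -0.51 (limma adjusted p = 0.113, edgeR adjusted p = 0.0150 on recovered reads). Reads of Hspa8 could in part stem from near-identical processed copies.

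Among HSP90 genes the mitochondrial Trap1 changed most, by 0.46 (limma adjusted p = 0.000881), beyond the 0.21 of Hsp90b1. The groups did not overlap in the ratio of Hsp90b1 to Trap1 (difference -0.25, SE 0.0464, exact permutation p = 0.10). The cytosolic Hsp90aa1 had a log2 change of 0.17 (limma adjusted p = 0.0872, edgeR adjusted p = 0.0330 on recovered reads). The ratio of Hsp90b1 to Hsp90aa1 overlapped between groups (difference 0.03, SE 0.0355). Hsp90ab1 stood at 929 ± 33.0 and 969 ± 34.6 FPKM (SD, n = 3), a log2 change of 0.06 that turned to -0.03 after quantile normalization.

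Within the disulfide isomerases the log2 change of Pdia4, 0.41, lay above those of its relatives. Pdia3, the isomerase that works with calreticulin, had a log2 change of 0.06 (limma adjusted p = 0.420), and Pdia6 one of 0.17 (limma adjusted p = 0.0243, lost when any 1 library except shMettl3_dox replicate 3 was left out, at 0.0598 to 0.0894). P4hb, the abundant isomerase PDI, was at -0.12 (limma adjusted p = 0.0631). It passed as lower with edgeR (adjusted p = 0.0469) and DESeq2 (adjusted p = 0.0170) on recovered reads, and in limma with median ratio scaling (0.0458), protein-coding scaling (0.0192) and quantile normalization (0.00603). The authors' deposited table also lists it, with a log2 fold change of -0.114 and an adjusted p of 0.0328. The ratio of Pdia4 to P4hb went from 0.269 to 0.390 (difference 0.53 on the log2 scale, SE 0.0933, exact permutation p = 0.10). Edem1 also stood apart in its family: Edem2 and Edem3 had log2 changes of 0.01 and 0.03, both of which turned negative with the protein-coding scaling (-0.0240 and -0.0047), against -0.37 for Edem1. The ratio of Edem1 to Edem2 went from 1.83 to 1.38, a difference of -0.38 (SE 0.0382), and that to Edem3 from 1.87 to 1.40, a difference of -0.40 (SE 0.0597; exact permutation p = 0.10 for each). Herpud2 had a log2 change of 0.05 (limma adjusted p = 0.497) against 0.27 for Herpud1, again with no overlap in the ratio. For Sdf2l1 with Sdf2 (-0.25 and -0.10) and Creld2 with Creld1 (0.06 and -0.10) the ratios overlapped.

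**Figure D4:**
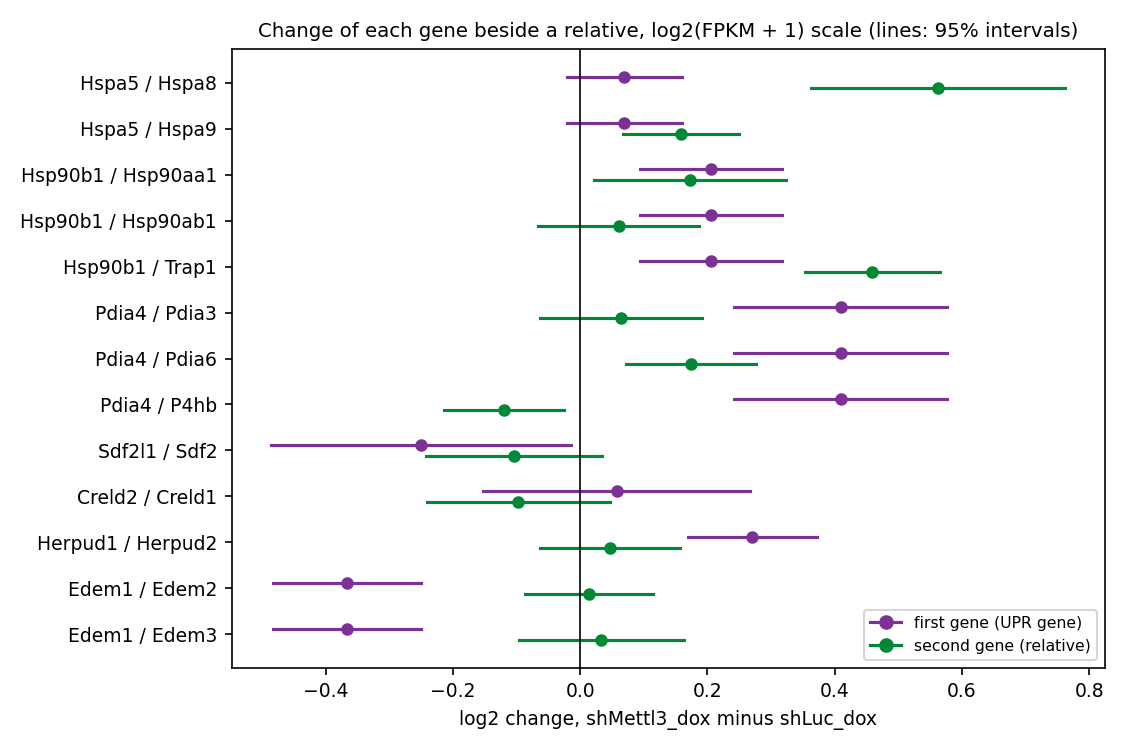
Log2 change of the ER stress genes that were paired (purple) beside a relative (green), shMettl3_dox minus shLuc_dox on the log2(FPKM + 1) scale, with 95% intervals. Manf, Dnajb9 and Xbp1 were not paired. The pairs Hspa5 and Hspa8, Pdia4 and P4hb, and Edem1 with Edem2 or Edem3 are farthest apart, and Hsp90b1 and Hsp90aa1 lie together.

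The sensors upstream of these genes changed in part. Of 9 sensors and transducers 3 were higher and 3 lower (33.3% each), with a median log2 change of 0.06. The shares over all tested genes were 14.6% and 13.5%. Ern1, which encodes IRE1, was at 5.90, 5.65 and 5.79 FPKM in shLuc_dox and at 4.49, 4.79 and 4.73 FPKM in shMettl3_dox. It fell by 0.26 on the log2 scale (limma adjusted p = 0.0125), with no overlap. Atf6 (0.15, limma adjusted p = 0.169) and Eif2ak3, the PERK gene (-0.10, limma adjusted p = 0.240), did not pass. Mbtps2, which encodes the site-2 protease that cuts ATF6, rose by 0.38.

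The strongest change among the transducers was in Creb3l1, which encodes OASIS, an ATF6-like membrane factor that drives collagen genes in bone. Creb3l1 was at 5.07, 4.98 and 4.43 FPKM in shLuc_dox and at 1.52, 1.45 and 1.31 FPKM in shMettl3_dox, a ratio of 0.296. Every shMettl3_dox library lay far below every control. Its log2 change was -1.26 (SE 0.0804, limma adjusted p = 0.000192), and its relative Creb3l2 changed by -0.28 (limma adjusted p = 0.00405). The 3 higher genes of the list were Mbtps1, Mbtps2 and Creb3, and none of the sensors Ern1, Atf6 and Eif2ak3 was among them. They became 1 without any 1 shLuc_dox replicate, without shMettl3_dox replicate 1 or with the protein-coding scaling.

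Other ER chaperones and folding enzymes were higher for 6 of 26 tested genes (23.1%) and lower for 3 (11.5%). Over all tested genes 14.6% were higher and 13.5% were lower. The median log2 change of the list was 0.06. Sil1, the nucleotide exchange factor of BiP, rose by 0.48 (a mean of 17.3 to one of 24.5 FPKM; limma adjusted p = 0.00304). Uggt1, which tags misfolded glycoproteins for another folding round, fell by 0.25 (limma adjusted p = 0.00472). The thioredoxin-like isomerases Txndc5 (0.22) and Txndc12 (0.23) also rose, but Txndc5 lost its call without any 1 of shLuc_dox replicates 2 and 3 and shMettl3_dox replicates 1 and 2 (0.0503 to 0.0599 by limma), and Txndc12 without any 1 of shLuc_dox replicates 1 and 2 and shMettl3_dox replicate 2 (0.0675 to 0.0739). The 6 higher genes numbered 3, 1 and 3 without shLuc_dox replicates 1, 2 and 3, and 2 and 1 without shMettl3_dox replicates 1 and 2. The 3 lower genes numbered 1 in each of these.

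Among other ERAD genes 5 of 21 tested were higher (23.8%) and 1 was lower (4.76%), with a median log2 change of 0.07. All tested genes gave 14.6% and 13.5%. The ubiquitin-conjugating enzyme genes Ube2j1 (14.5 ± 1.18 to 23.7 ± 2.09 FPKM, log2 change 0.67, limma adjusted p = 0.00172) and Ube2g2 (0.42) rose. Syvn1, which encodes the ligase HRD1 that Herpud1 binds, went the other way: it fell by 0.29 (limma adjusted p = 0.0126), with a call that was lost without shLuc_dox replicate 1 (0.0504) or 2 (0.0501), so that 0 genes were then lower in limma (1 in edgeR and 1 in DESeq2 with all libraries, and 1 at an unadjusted limma p under 0.05). Its promoter carries a full ERSE from -44 to -26. Elsewhere in the lists outside the 10, so did those of Calr (log2 change 0.15) and Pdia6 (0.17), both called higher. Canx (-0.21, called lower), Dnajc3 (0.06, did not pass) and Derl3 (not tested) carried one too.

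In ER entry and N-glycosylation 7 of 23 genes were higher (30.4%) and 1 was lower (4.35%), with a median log2 change of 0.08. Across all tested genes it was 14.6% and 13.5%. The translocon gene Sec62 (0.25), the signal peptidase gene Spcs1 (0.21), the glucosidase gene Mogs (0.31) and the oligosaccharyltransferase gene Stt3b (0.20) rose. The 7 became 2 when any 1 library except shMettl3_dox replicate 3 was left out. Of the named genes Sec62 then lost its call only without shLuc_dox replicate 1 (limma adjusted p = 0.0517), and Spcs1, Mogs and Stt3b without 3, 4 and 5 of the libraries (0.0514 to 0.0870). The 1 lower gene, Sec61a1 (-0.16), became 0 in limma without any 1 shLuc_dox replicate or without shMettl3_dox replicate 2 (1 in edgeR and 1 in DESeq2 with all libraries, and 1 at an unadjusted limma p under 0.05).

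Traffic from the ER to the Golgi was mixed, with 4 of 18 genes higher and 3 lower (median log2 change -0.03). That is 22.2% and 16.7%, against 14.6% and 13.5% of all tested genes. Sec24a, a cargo adaptor of the COPII coat, fell by 0.37 (limma adjusted p = 0.0103). The small GTPase gene Sar1a (0.17) and the cargo lectin genes Lman2 (0.17) and Lman1 (0.16) rose by little. The 4 higher genes numbered 1, 0 and 1 without shLuc_dox replicates 1, 2 and 3 and 0 and 2 without shMettl3_dox replicates 1 and 2, and the 3 lower genes 1 in each of these. At an unadjusted limma p under 0.05, 7 of the 18 were higher with all libraries, and edgeR and DESeq2 called 5 and 3.

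The list of PERK and ATF4 output gave 5 higher and 2 lower genes of 13 tested (median log2 change 0.11). These are 38.5% and 15.4%, against 14.6% and 13.5% of all tested genes. Whether PERK had a part in these values was not tested. Atf4, the transcription factor of the branch, went from 75.9 ± 3.22 to 101.5 ± 2.92 FPKM (SD, n = 3; log2 change 0.41, limma adjusted p = 0.00131). Chac1, an ATF4 target that degrades glutathione, was at 4.398, 4.646 and 5.119 FPKM in shLuc_dox and at 9.30, 12.2 and 9.09 FPKM in shMettl3_dox, a ratio of 2.16. Asns rose by 0.67. Ddit3, which encodes the stress factor CHOP, did not pass (-0.22, limma adjusted p = 0.129; 0.0381 with the replicate block), and Atf3 fell by 1.26 on the log2 scale (limma adjusted p = 0.000558). The 5 higher genes numbered 3 without any 1 of shLuc_dox replicates 1 and 3 and shMettl3_dox replicates 1 and 2.

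Cytosolic and mitochondrial chaperones, tested for comparison, gave 7 higher and 2 lower of 17 (median log2 change 0.16). In percent this was 41.2 and 11.8, against 14.6 and 13.5 for all tested genes. Hsph1, a nucleotide exchange factor of cytosolic HSP70, rose by 0.66, the mitochondrial chaperonin gene Hspd1 by 0.34 and Trap1 by 0.46, whereas Dnajb1, a heat-inducible J protein, fell by 0.46. The 2 lower genes, Dnajb1 and Hspa1b, became 1 without any 1 of shLuc_dox replicates 1 and 2 and shMettl3_dox replicates 1 and 2, and 3 without shLuc_dox replicate 3. Hspa1b is nearly identical to Hspa1a, so the division of their reads is uncertain. None of these list counts was compared with the count among the 10 genes by a test.

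**Figure D5:**
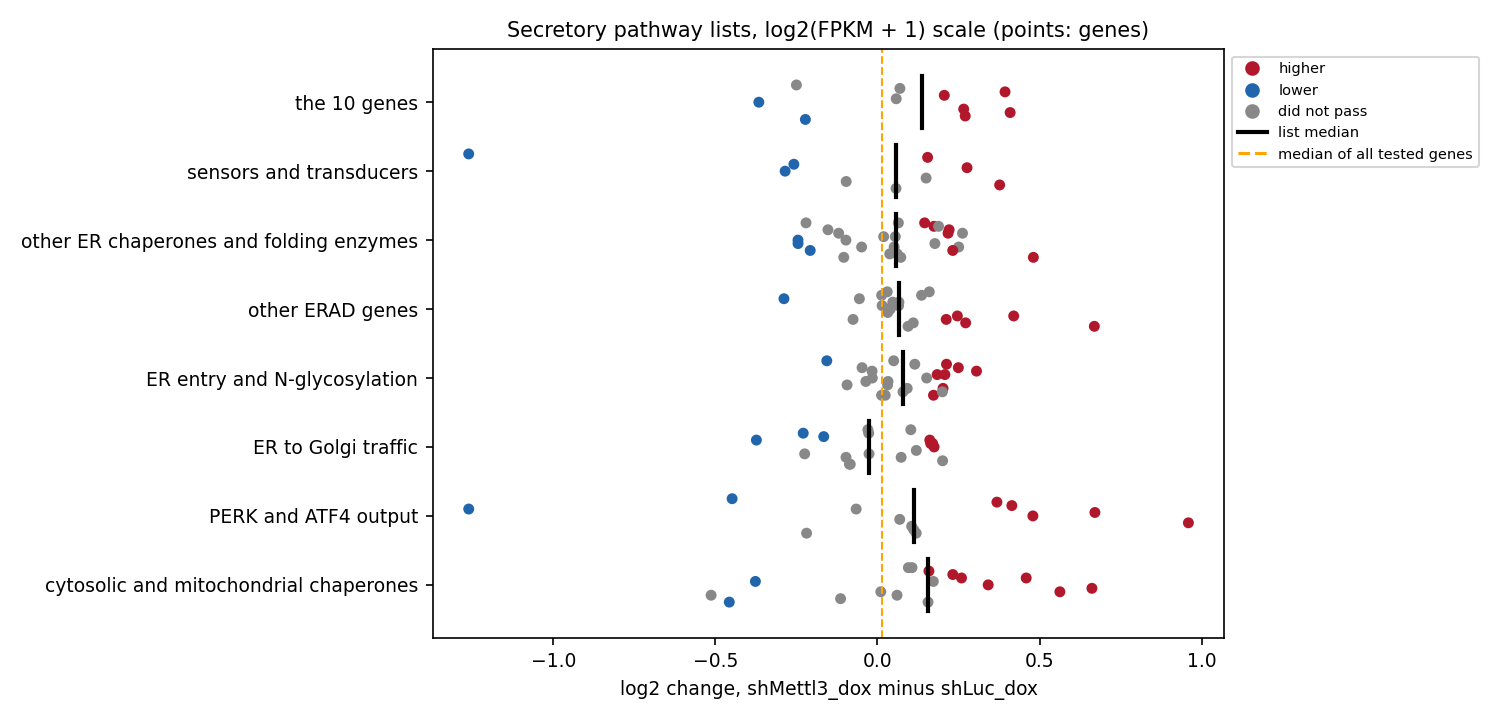
Log2 change of every tested gene in the 8 lists (x axis, shMettl3_dox minus shLuc_dox, log2(FPKM + 1) scale; one point per gene, coloured by its limma result), with each list's median as a black bar and the median of all tested genes as a dashed line. List medians lie between -0.03 and 0.16, and Creb3l1 and Atf3 stand far to the left at -1.26.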

How the data were processed

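RNA-seq was measured in 6 libraries, 3 per group. FPKM values were made by the authors by scaling reads to gene length and library size, and the deposited normalized read count signal, given by the authors for 1960 lower genes only, is reads divided by 1 size factor per library. For the same genes the authors gave deposited log2 fold changes, and p-values from the authors stand beside them. Per the submitters' processing notes fastp, STAR, featureCounts 1.5.3, DESeq2 and mm10 were used; roles, strand setting and annotation are not given in the sources used here.

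Genes that reached 1 FPKM on average were tested with limma 3.58.1 in R 4.3.3 (log2(FPKM + 1), eBayes with trend, two-sided, Benjamini-Hochberg over 12098 genes, threshold 0.05). Fold changes on this scale understate those of low genes. Whole reads were recovered from GENCODE M21 exon lengths (96.6% of 26328 genes above 0, within 0.001 of a read in all libraries). For the lower genes that the authors listed, reads came from the normalized counts. Other values were rounded (of the named genes Sil1, Lman1, Hspa9 and Hsp90ab1). edgeR 4.0.16 and DESeq2 1.42.0 on these reads were alternatives, beside a pseudocount of 0.1, other filters and scalings, no trend, the replicate number as a block and leaving out each library. The protein-coding scaling was added after seeing the data. Scripts were tested on simulated data. Coordinates are 1-based, and promoters and motifs come from RefSeq tables (GRCm38.p6, the assembly of mm10).

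The 10 genes and the lists were chosen with earlier results of these data known. Named were the 10, Mettl3, set sensors and relatives, up to 4 genes per list with the smallest p, and 5 genes of like pattern (1 gene the rule names is not reported here); other list members, Sec61a1, Hspa1a, Hspa1b and the marker genes were named after their values were seen. List symbols were matched to the deposited symbols, Ufd1l through a RefSeq synonym. Python 3.11.15, numpy 2.4.6, pandas 2.3.3, scipy 1.17.1 and matplotlib 3.10.9 served the rest.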

Additional observations from a re-analysis of the deposited data

How the results depend on the processing

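Of the 10 genes, Pdia4, Manf, Herpud1 and Edem1 kept direction and call in all 16 alternatives and leave-one-out fits, and Hspa5 and Creld2 passed in none. Signs turned in these cases: Creld2 ran from -0.0011 to 0.1463, Edem2 from -0.0049 to 0.0336 and Edem3 from -0.0156 to 0.0605 when 1 library was left out, Edem2 and Edem3 were at -0.0240 and -0.0047 with the protein-coding scaling, and Hsp90ab1 was at -0.0336 after quantile normalization. The cause was not tested for these or the shifts below.

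Same-numbered libraries did not deviate together (correlations 0.03, -0.01 and 0.06), so the replicate block is no pairing; under the block Sdf2l1 passed (0.0438), lower genes became 0 for ER entry (from 1) and 1 for cytosolic and mitochondrial chaperones (from 2), and all-gene calls were 1676 higher and 1525 lower. Counts of genes called moved as follows. Members higher (5) became 3 after quantile normalization and with the protein-coding scaling, and members lower (2) became 1 without the filter on low values and with edgeR or DESeq2. With the protein-coding scaling, higher sensors and transducers became 1 (from 3) and higher ER entry genes 3 (from 7). Under it higher traffic genes became 1 (from 4) and lower other chaperones 5 (from 3). After quantile normalization higher ER entry genes became 4 and higher traffic genes 1. Without the filter, higher and lower other chaperones became 3 (from 6) and 1, higher ER entry genes 2 and lower traffic genes 1 (from 3). Higher genes in the list of PERK and ATF4 output became 3 (from 5) and lower cytosolic chaperones 1, also without the filter. Without the trend, lower ER entry genes became 0 (from 1; limma, 1 at an unadjusted p under 0.05 with it) and lower traffic genes 1.

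Leaving out 1 library gave, higher and lower, 3 to 5 and 1 to 2 members, and 1 to 3 and 3 sensors and transducers. It gave 1 to 7 and 1 to 3 other chaperones and 4 to 7 and 0 to 1 other ERAD genes. ER entry genes numbered 2 to 7 and 0 to 1, traffic genes 0 to 4 and 1 to 3. For the list of PERK and ATF4 output the counts were 3 to 5 and 2. Cytosolic and mitochondrial chaperones gave 5 to 7 and 1 to 3, and all genes 1013 to 1854 and 1060 to 1646. Dnajb9, Sdf2l1 and Herpud1 rest on the fewest reads of the 10, at most 369, 621 and 679 per library. Sdf2l1 and Creld2 have the largest SE (0.0994 and 0.0888).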
